A study of Mus musculus with 8 samples.

Results

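The genes described here are 7 MAP kinase phosphatases (MKPs: Dusp1, Dusp2, Dusp4, Dusp5, Dusp6, Dusp10 and Dusp16) and 3 kinases of the same pathways (Mapk14, Mapkapk2 and Mapk3), chosen by symbol. All 10 were among the 53735 genes of the deposited count tables and among the 14418 that passed the filter on low counts. They were measured by bulk RNA-seq in bone marrow derived macrophages (BMDMs) of male mice, 6 months old, that had received Angiotensin II (Ang II, given as 1.44 mg/kg/day by osmotic minipump, beside a rate per minute in the labels that does not match it) for 7 days. Marrow cells were then differentiated in culture for 7 days. WT cells were Mkl1+/+, Apoe-/- and KO cells were Mkl1-/-, Apoe-/-, so that the Apoe deletion and the infusion were common to all libraries, and the knockout was global rather than limited to macrophages. There were 4 WT and 4 KO libraries in 2 experiments, with WT 1 and 2 and KO 5 and 6 in experiment 1, and WT 3 and 4 and KO 7 and 8 in experiment 2. The labels do not say that each library came from a separate mouse, so the p values measure the spread between these libraries, which may in part be technical.

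MAP kinases such as p38 and ERK are switched on by phosphorylation of a threonine and a tyrosine in their activation loop. MKPs are dual-specificity phosphatases that remove both phosphates and so end the signal, and several of them are themselves induced by the kinases they switch off. In macrophages, p38 acts through its downstream kinase MK2 (Mapkapk2) on the stability of cytokine mRNAs, and Dusp1 is a known brake on that response. MKL1 is a coactivator of serum response factor (SRF), which binds CArG boxes in promoters. The counts measure mRNA only, and kinase activity or phosphorylation was not measured in these libraries.

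Promoters are shown for the 2 members whose windows held the rarest of the motifs searched, Dusp1 and Dusp5, and for Dusp2 and Mapkapk2, which were both highest in WT of experiment 2. RefSeq promoter sequences (GRCm38.p6) matched 8 of the 10 members by symbol, in 9 windows, with 2 for Mapk14, and Dusp4 and Mapk3 were not matched. In the 250 bases before each start, 5 motifs were searched on both strands. They were the CArG box, the cAMP response element (CRE, TGACGTCA) and its core TGACG, which lies within the full CRE, the AP-1 site TGANTCA and the NF-kB site. Of 32851 promoter windows of the same length, 1.47% held a CArG box, 1.55% a full CRE, 17.8% the CRE core, 6.75% an AP-1 site and 7.25% an NF-kB site. Capitals mark a CArG box in Dusp5, a full CRE in Dusp1 and the CRE core in both, and bases that GENCODE M21 places in an exon of the gene are left out of the printed stretch.
Dusp1 promoter, chr17:26508520-26508722, minus strand: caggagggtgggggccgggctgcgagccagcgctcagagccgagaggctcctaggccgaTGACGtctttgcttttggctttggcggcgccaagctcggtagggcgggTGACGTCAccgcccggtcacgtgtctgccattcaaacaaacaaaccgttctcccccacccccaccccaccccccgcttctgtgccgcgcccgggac
Dusp5 promoter, chr19:53528895-53529108, plus strand: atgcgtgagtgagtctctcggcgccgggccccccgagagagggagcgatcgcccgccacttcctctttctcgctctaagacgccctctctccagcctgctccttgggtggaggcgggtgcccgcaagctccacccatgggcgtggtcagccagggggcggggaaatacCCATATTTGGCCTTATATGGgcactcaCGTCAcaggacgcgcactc
Dusp2 promoter, chr2:127335909-127336158, plus strand: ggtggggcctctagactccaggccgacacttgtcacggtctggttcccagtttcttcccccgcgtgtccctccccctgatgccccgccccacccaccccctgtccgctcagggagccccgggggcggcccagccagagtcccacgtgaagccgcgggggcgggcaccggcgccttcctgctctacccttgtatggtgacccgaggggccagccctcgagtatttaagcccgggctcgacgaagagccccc
Mapkapk2 promoter, chr1:131097844-131098093, minus strand: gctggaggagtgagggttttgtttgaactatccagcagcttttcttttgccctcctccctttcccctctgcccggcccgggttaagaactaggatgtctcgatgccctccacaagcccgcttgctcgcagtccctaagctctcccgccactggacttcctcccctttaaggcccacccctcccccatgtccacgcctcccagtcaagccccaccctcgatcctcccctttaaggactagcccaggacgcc
Dusp5 held 2 CArG boxes end to end, 82 to 73 and 72 to 63 bases before its start. Dusp1 held 1 full CRE 143 to 136 bases before its start and a separate CRE core at 191 to 187. Dusp5 and Dusp16 each held 1 CRE core, and the letters of the motifs searched were not in the windows of Dusp2, Dusp6, Dusp10, Mapk14 or Mapkapk2. The matches describe these letters and were not tested as binding sites.

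**Figure D1:**
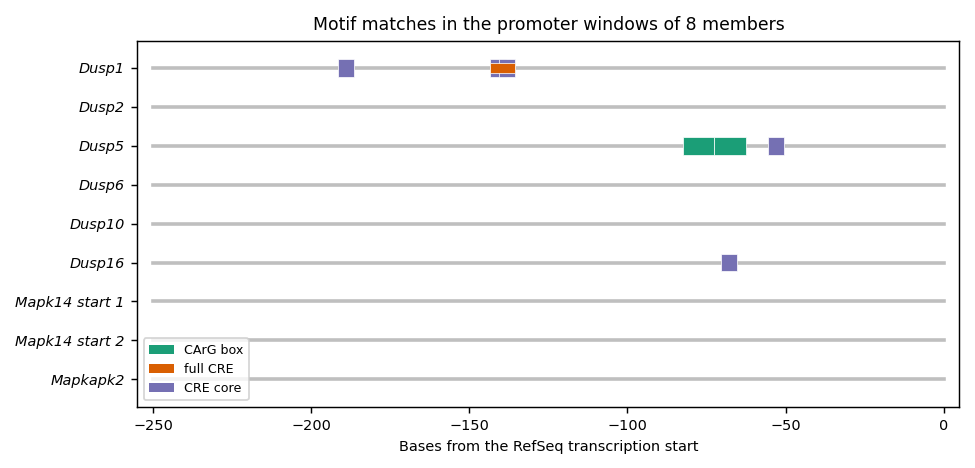
Positions of motif matches in the 250 bases before the RefSeq starts of 8 members (x axis: bases from the start, 0 at the right; colours: CArG box, full CRE, CRE core). Dusp5 is the only one of these genes with CArG boxes, 2 of them end to end, and Dusp1 the only one with a full CRE.

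Library totals lay between 33977799 and 41584540 counts. Mkl1, the targeted gene, had 25.6, 27.1, 26.8 and 29.6 CPM (counts scaled to library size) in WT 1 to 4 and 19.5, 20.9, 14.6 and 10.4 CPM in KO 5 to 8, so that its reads were lower in every KO library but not absent. Its log2 fold change was -0.39 (SE 0.08, adjusted p = 0.00381) in experiment 1 and -1.17 (SE 0.19, adjusted p = 0.0218, edgeR) in experiment 2. The 10 macrophage markers examined had a summed level of 15260 to 36060 CPM, most of it from Lyz2 and Adgre1, and F13a1 was at 0 counts in WT 4 and above 1 CPM only in KO 5 and 6 (5.14 and 5.05 CPM). In experiment 1 KO 6 of them were higher and 3 lower (edgeR, adjusted p under 0.05). Of 9 fibroblast markers, 7 were tested and all 7 were higher in KO of experiment 1, where their sum was 178 to 235 CPM against 2.18 to 12.1 CPM in the other 6 libraries, with Lum and Thy1 near 0. Sums of neutrophil, dendritic cell and lymphocyte markers reached at most 13.7, 1.62 and 0.135 CPM, with Retnlg and Cd3e at 0 counts. Over all genes tested, WT of experiment 1 and KO of experiment 2 were the most alike groups (SD of the log2 difference 0.41), and the other pairs had SDs from 0.84 to 0.98.

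Levels of different genes were compared per length of exon. Mapkapk2, the kinase that p38 activates, was the most abundant member, with 66.7 to 267 CPM per kb over the 8 libraries, and its lowest library lay above the highest of any other member except Dusp4. Mapk3 (ERK1) had 37.1 to 54.9 CPM per kb and Mapk14 (p38α, the main p38 isoform) 28.7 to 40.0 CPM per kb. The phosphatases fell into an abundant and a sparse set. Dusp4 (6.83 to 67.6 CPM per kb), Dusp6 (15.2 to 42.1) and Dusp1 (6.83 to 26.9) overlapped each other. Dusp16 (2.79 to 5.04), Dusp2 (0.554 to 6.82), Dusp10 (0.974 to 2.08) and Dusp5 (0.470 to 3.63 CPM per kb) came last. Neighbours in this order overlapped in range, with Mapkapk2 above Mapk3 and Dusp1 above Dusp16 as the exceptions. Exon lengths were taken from GENCODE M21, which may differ from the annotation the authors used.

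**Figure D2:**
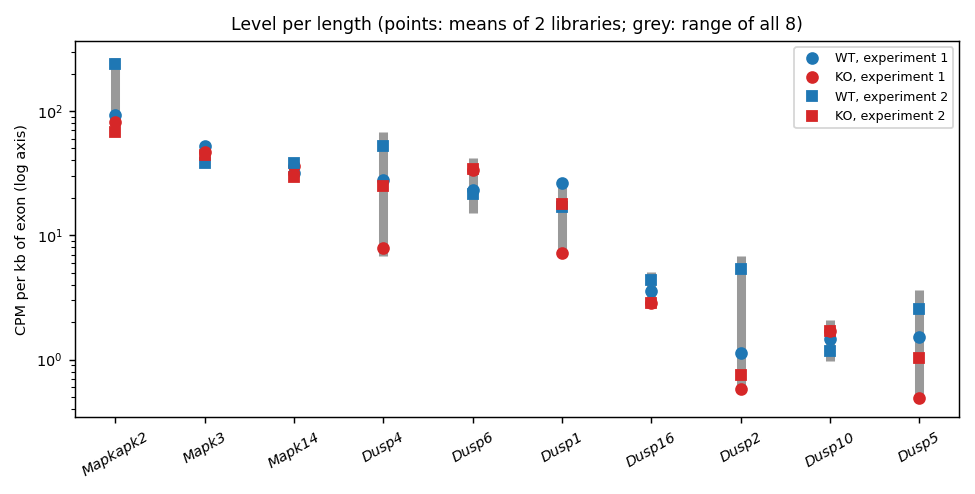
Level of each member in CPM per kb of exon on a log axis, with means of 2 libraries as points (blue WT, red KO, circles experiment 1, squares experiment 2) and the range of all 8 libraries in grey. Mapkapk2 is highest, and Dusp2, Dusp10 and Dusp5 form the low end, with the widest spread for Dusp2.

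The first comparison asked how KO differed from WT within each experiment, as the series' own design separates the batches. In experiment 1, 5 phosphatases fell in KO (Dusp1, Dusp2, Dusp4, Dusp5 and Dusp16) and Dusp6 rose. This made 6 of 10 members past an adjusted p of 0.05 (edgeR), where 55.1% of all genes tested were past it, so the share called in either direction was near the background. By direction, 5 were lower (background 28.1%) and 1 was higher (background 27.0%). In experiment 2, 2 members fell, Dusp2 and Mapkapk2, against a background of 15.8% in either direction and 8.29% lower. With 2 libraries a group, an exact permutation test within 1 experiment cannot go below p = 0.333, so the calls rest on the spread shared over genes in the edgeR fit. KO did not overlap WT in experiment 1 for any member, with 7 below (background 38.7%) and 3 above (background 41.2%). In experiment 2, 6 members were below (background 32.5%) and Mapk3 above (background 32.9%). Fewer cells of a type and less RNA per cell cannot be told apart in bulk RNA.

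Dusp1 (MKP-1, chromosome 17) removes phosphate from p38, JNK and, less, from ERK in the nucleus, and is an immediate early gene. Its level was 86.6 and 89.0 CPM in WT 1 and 2 and 22.6 and 25.2 CPM in KO 5 and 6. Both KO libraries of experiment 1 were thus far below both WT libraries, 3.70-fold in the fit (log2 fold change -1.89, SE 0.07, adjusted p = 1.33e-06, edgeR). In experiment 2 it had 49.97 and 61.2 CPM in WT 3 and 4 and 74.1 and 44.9 CPM in KO 7 and 8. There the groups overlapped, with a log2 fold change of 0.10 (SE 0.26, adjusted p = 0.820, edgeR). Between the experiments its difference changed by 1.98 on the log2 scale (SE 0.31, adjusted p = 0.00254, edgeR interaction test). The experiment 2 value was -0.31 without KO 7, -0.04 without WT 3, 0.25 without WT 4 and 0.42 without KO 8. Its locus, chr17:26505590-26562128 on the minus strand, overlaps Ergic1 on the opposite strand by 640 bases as well as 2 processed pseudogenes, and opposite-strand genes also overlap Dusp5, Dusp10 and Dusp16. The strand setting of the counting is not given in the sources used here, so reads of such pairs may not be told apart. On the same strand, AC122252.1 overlaps Dusp1 (1853 bases), AC170998.1 overlaps Mapk14 (618 bases), and Gm37084 and Gm25549 overlap Mapkapk2 (5898 and 94 bases). Strand does not separate reads where genes of the same strand share exons, which was not examined.

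Dusp4 (MKP-2, chromosome 8) is another nuclear, inducible phosphatase of ERK, JNK and p38. It had 81.5 and 70.5 CPM in WT 1 and 2 against 18.7 and 24.4 CPM in KO 5 and 6. In experiment 2 it had 101 and 185 CPM in WT 3 and 4 against 80.3 and 55.6 CPM in KO 7 and 8. KO was below WT in both experiments, 3.55-fold in experiment 1 (log2 fold change -1.83, SE 0.15, adjusted p = 0.000267, edgeR) and 2.11-fold in experiment 2 (-1.07, SE 0.34, adjusted p = 0.103), which was not called. Without WT 4 the experiment 2 value was -0.57 (adjusted p = 0.232), and without WT 3 it was called (-1.45, adjusted p = 0.0476, edgeR). Over all 8 libraries 1 value crossed, since KO 7 (80.3 CPM) lay above WT 2 (70.5 CPM).

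Dusp5 (chromosome 19) is a nuclear phosphatase selective for ERK, and its promoter carried the pair of CArG boxes shown above. It was sparse, with 43 counts or more in each library. It had 3.91 and 3.58 CPM in WT 1 and 2 and 1.16 and 1.27 CPM in KO 5 and 6, and 3.67 and 8.97 CPM in WT 3 and 4 and 3.10 and 1.99 CPM in KO 7 and 8. Every KO library was below every WT library. The log2 fold change was -1.63 (SE 0.20, adjusted p = 0.000246, edgeR) in experiment 1 and -1.31 (SE 0.50, adjusted p = 0.139, edgeR) in experiment 2. The experiment 2 value depended on WT 4, whose 8.97 CPM was the highest of all, and the log2 fold change was -0.53 without it and -1.82 without WT 3 (adjusted p = 0.0468, edgeR).

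**Figure D3:**
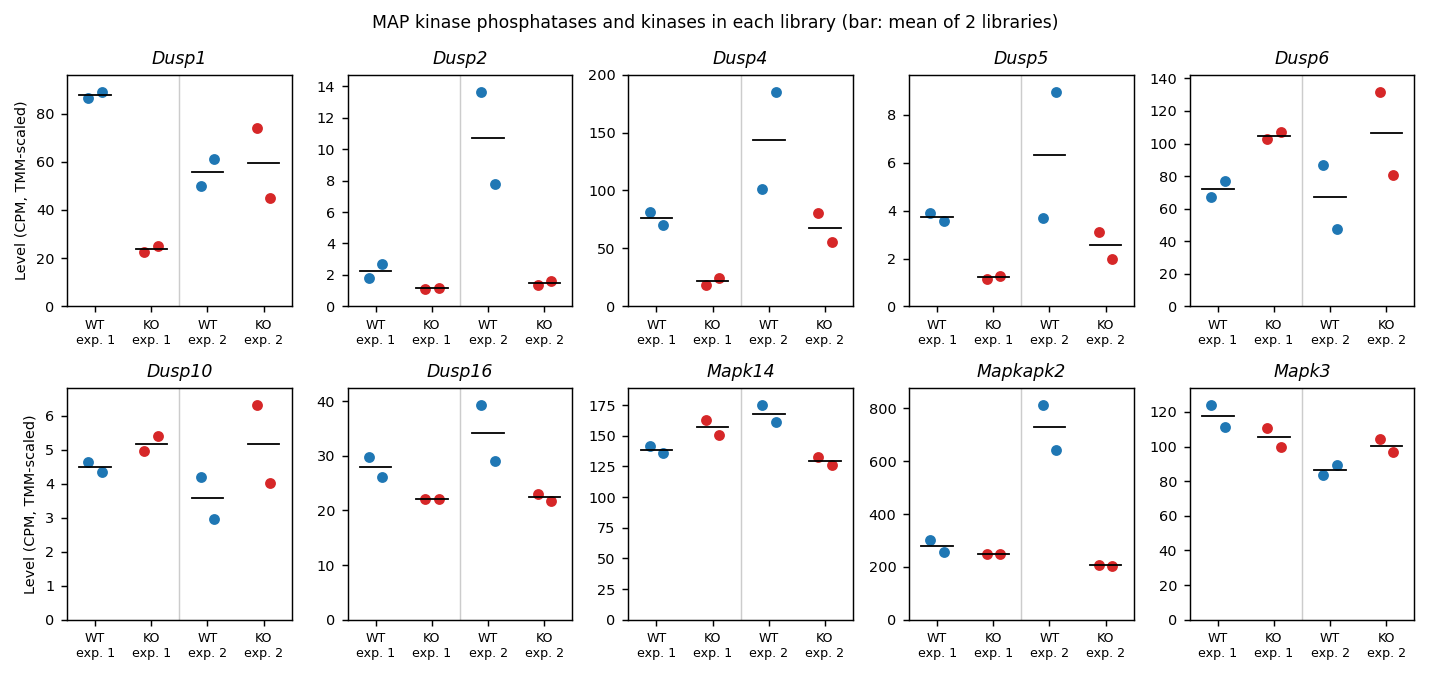
Level of each member in each library in CPM (linear axes from 0; blue WT, red KO; bars are means of 2 libraries; experiment 1 left and experiment 2 right of the grey line). Dusp1, Dusp4 and Dusp5 are lowest in KO of experiment 1, and Dusp2 and Mapkapk2 stand out as high in WT of experiment 2.

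Fit over both experiments with the experiment as a term, Dusp4 and Dusp5 were the 2 members past the threshold (background 7.12% in either direction, 3.41% lower and 3.72% higher), with log2 fold changes of -1.44 (SE 0.26, adjusted p = 0.0251) and -1.46 (SE 0.31, adjusted p = 0.0375, edgeR). The mean of Dusp4 was 109 ± 52.0 CPM for WT against 44.8 ± 28.7 for KO, and that of Dusp5 was 5.03 ± 2.63 CPM against 1.88 ± 0.890 (SD, n = 4 libraries of each genotype). A difference of their effects between the experiments was not called (0.74, SE 0.42, adjusted p = 0.190 for Dusp4, and 0.31, SE 0.59, adjusted p = 0.706 for Dusp5, edgeR interaction test). By limma-voom the adjusted p of Dusp5 was 0.0609. Without WT 1, WT 2, WT 4, KO 5 or KO 6 neither was made, with adjusted p between 0.0717 and 0.0860 for Dusp4 and between 0.0951 and 0.125 for Dusp5 (edgeR), and without KO 7 or KO 8 that of Dusp5 was 0.0755 or 0.0683. By a measure of likeness over the 8 libraries, the root mean square difference of log2 CPM centred per gene, Dusp5 was the nearest of all tested genes to Dusp4 (0.27). Next came Flrt3 and the clone-named gene RP23-458G12.1 (0.33 each).

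Dusp2 (PAC-1, chromosome 2) is a nuclear phosphatase of immune cells. It had 1.82 and 2.67 CPM in WT 1 and 2 and 1.11 and 1.20 CPM in the KO libraries 5 and 6, against 13.7 and 7.76 CPM in WT 3 and 4 and 1.37 and 1.63 CPM in KO 7 and 8. Thus the WT libraries of experiment 2 stood 4.77-fold above those of experiment 1 in mean, while all 4 KO libraries lay between 1.11 and 1.63 CPM, below every WT library. It fell 1.95-fold in experiment 1 (log2 fold change -0.96, SE 0.26, adjusted p = 0.0143, edgeR) and 7.13-fold in experiment 2 (-2.83, SE 0.34, adjusted p = 0.0125). In the edgeR fits of each experiment alone, Dusp2 was the 1 member past the threshold in the same direction in both, which held for 4.38% of all genes tested, 2.25% in the lower direction. By DESeq2, Dusp2, Dusp4, Dusp5 and Dusp16 were lower in both. With a spread shared by 4 groups Dusp4 and Dusp5 were, while Dusp2 was not called in experiment 1 (adjusted p = 0.0560, edgeR). The share of all genes lower in both was not counted for these settings. They called 3135 and 4899 of 14418 genes in experiment 2, against 2279 in the main fit. The size of the Dusp2 difference was unlike in the 2 experiments (interaction -1.88, SE 0.46, adjusted p = 0.0151, edgeR). In both experiments together the adjusted p was 0.0503 (log2 fold change -1.92, SE 0.45, edgeR), just outside the threshold, and it was within it by DESeq2 (0.000230), limma-voom (0.0351) and both other filters (0.0409 and 0.0465).
The calls of Dusp2 were lost without some libraries. In experiment 1 the adjusted p was 0.0878 without WT 2 and 0.0566 without KO 5, and in experiment 2 it was 0.0635 without KO 7 and 0.0787 without KO 8 (edgeR). The interaction had 0.0587 without WT 1 and 0.0550 without KO 6.

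Dusp6 (MKP-3, chromosome 10), the cytoplasmic phosphatase of ERK, moved the other way. It had 67.4 and 76.96 CPM in WT 1 and 2 and 103 and 107 CPM in KO 5 and 6. In experiment 2 it had 86.5 and 47.6 CPM in WT 3 and 4 and 132 and 80.7 CPM in KO 7 and 8, where the groups overlapped. Dusp6 rose 1.44-fold in experiment 1 (log2 fold change 0.53, SE 0.07, adjusted p = 0.000532, edgeR), and its log2 fold change was 0.66 in experiment 2 (SE 0.37, adjusted p = 0.276). The latter was 0.27 without KO 7, 0.30 without WT 4 and 1.16 without WT 3, and was not called in any of these fits. With a spread shared by all 4 groups the adjusted p in experiment 1 was 0.183. In these libraries the ratio of Dusp4 to Dusp6 in CPM was 0.916 to 3.89 in WT and 0.182 to 0.689 in KO. Neither gene alone separated KO from WT over all 8 libraries. How often ratios of other gene pairs separate the genotypes was not examined.

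Dusp10 (MKP-5) and Dusp16 (MKP-7), on chromosomes 1 and 6, act on p38 and JNK rather than ERK. Dusp16 had 29.7 and 26.1 CPM in WT 1 and 2 against 22.05 and 22.2 CPM in KO 5 and 6, and 39.3 and 29.0 CPM in WT 3 and 4 against 23.1 and 21.7 CPM in KO 7 and 8. All 4 KO libraries were below all 4 WT libraries. It fell 1.27-fold in experiment 1 (log2 fold change -0.35, SE 0.09, adjusted p = 0.00887, edgeR), a call lost without WT 1 (adjusted p = 0.0836), and had -0.61 in experiment 2 (SE 0.17, adjusted p = 0.0726, edgeR), which became -0.37 without WT 3 (adjusted p = 0.257) and was called without WT 4 (-0.81, adjusted p = 0.0366). Dusp10 stayed within 2.96 to 6.32 CPM in all libraries. Its log2 fold change was 0.19 (SE 0.15, adjusted p = 0.310) in experiment 1 and 0.53 (SE 0.32, adjusted p = 0.298, edgeR) in experiment 2, and neither was called. With 1 library left out the experiment 2 value lay between 0.17 (without KO 7) and 0.82 (without KO 8).

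Among the kinases, Mapkapk2 (MK2, chromosome 1) carried the largest difference. It had 813 and 643 CPM in WT 3 and 4, against 303 and 256 CPM in WT 1 and 2, and 247, 247, 208 and 203 CPM in KO 5 to 8. WT of experiment 2 was 2.60-fold above WT of experiment 1 in mean, and no KO library reached a WT library. The ratio of Mapkapk2 to Mapk14 in CPM was 2.15, 1.88, 4.64 and 3.99 in WT 1 to 4 and 1.52 to 1.64 in the KO libraries. Mapkapk2 fell 3.54-fold in experiment 2 (log2 fold change -1.83, SE 0.17, adjusted p = 0.00727, edgeR), and had -0.19 in experiment 1 (SE 0.08, adjusted p = 0.0904). The difference between the experiments was -1.65 (SE 0.19, adjusted p = 0.000822, edgeR interaction test). Without KO 8 the experiment 2 call was lost (log2 fold change -1.81, adjusted p = 0.0611), while the experiment 1 value was -0.06 without WT 1 (adjusted p = 0.547) and -0.30 without WT 2 (adjusted p = 0.00916, called).

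Mapk14, the gene of p38α, on chromosome 17, varied little, by 1.39-fold between its lowest and highest library. It had 141 and 136 CPM in WT 1 and 2 and 163 and 151 CPM in KO 5 and 6, and 175 and 161 CPM in WT 3 and 4 and 133 and 126 CPM in KO 7 and 8. KO was thus above WT in experiment 1 and below it in experiment 2, with log2 fold changes of 0.17 (SE 0.06, adjusted p = 0.0507) and -0.38 (SE 0.11, adjusted p = 0.0844, edgeR). Neither was called, but the difference between them was (-0.56, SE 0.12, adjusted p = 0.00879, edgeR interaction test). In both experiments together Mapk14 had -0.10 (SE 0.13, adjusted p = 0.684, edgeR), and its mean was 153 ± 18.0 CPM for WT against 143 ± 16.9 for KO (SD, n = 4 libraries each). The experiment 1 value passed with upper-quartile scaling (0.27, adjusted p = 0.00779) and without KO 6 (0.22, adjusted p = 0.0310), and was 0.11 without KO 5 (adjusted p = 0.245). The interaction did not pass without KO 5 (adjusted p = 0.0524).
Mapk3, the gene of ERK1, on chromosome 7, was also close between genotypes. It ranged from 83.7 CPM in WT 3 to 124 CPM in WT 1, with the KO libraries between 96.8 and 111 CPM. The log2 fold change was -0.17 (SE 0.08, adjusted p = 0.0866) in experiment 1 and 0.22 (SE 0.11, adjusted p = 0.221, edgeR) in experiment 2. In experiment 1 it was called without WT 2 (-0.25, adjusted p = 0.0470) or KO 5 (-0.24, adjusted p = 0.0371), and was -0.09 without WT 1 and -0.10 without KO 6 (adjusted p = 0.441 and 0.337, edgeR).

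**Figure D4:**
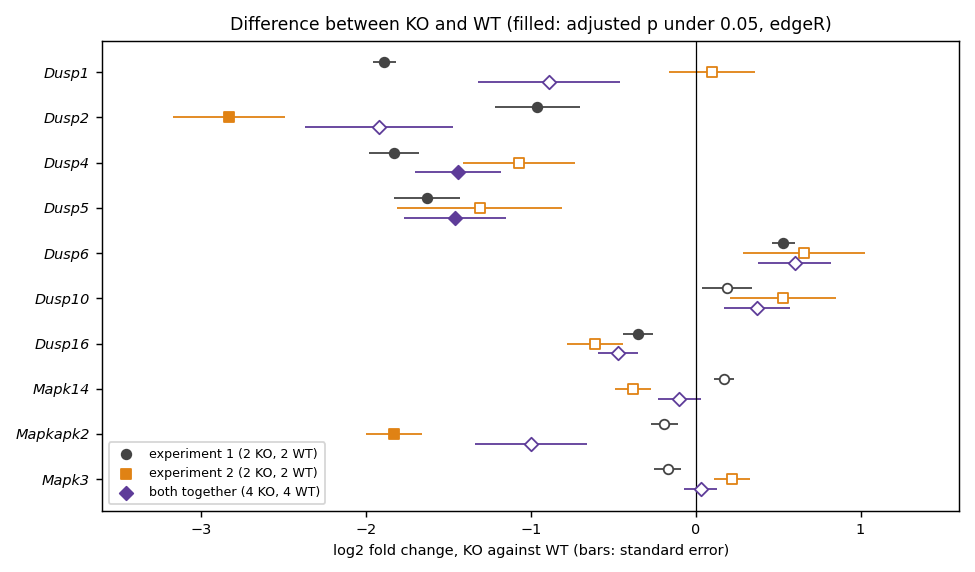
Log2 fold change of KO against WT for each member with its standard error, in experiment 1 (circles), experiment 2 (squares) and both together (diamonds), filled where the adjusted p was under 0.05 in edgeR. Dusp1 lies at -1.89 in experiment 1 and 0.10 in experiment 2, Mapkapk2 at -0.19 and -1.83, and Dusp4 and Dusp5 lie left of 0 in both.

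Of the 10 members, 4 had every KO library below every WT library over both experiments (Dusp2, Dusp5, Dusp16 and Mapkapk2), which held for 6.25% of all genes tested, and none had every KO library above (background 6.46%). The interaction test called 4 members (background 41.6%), Dusp1 upward (background 21.0%) and Dusp2, Mapk14 and Mapkapk2 downward (background 20.6%). In the fits without WT 4 it also called Dusp4 and Dusp16, and without KO 8 Mapk3. The summed level of the 7 phosphatases was 273 to 343 CPM in WT and 173 to 320 CPM in KO, with KO 7 within the range of WT. The median log2 fold change of the 10 members was -0.27 in experiment 1 and -0.49 in experiment 2, with a median of 0.01 over all genes in each. The pair of members most alike across libraries was Dusp6 and Dusp10 (0.19 by the measure above). The genes nearest to Dusp2 were Ccrl2 (0.29), Lpar1 (0.31) and Tlr2 (0.34), all of which had their highest levels in WT 3 and 4. Ccrl2, a chemerin-binding receptor, had 84.7 to 108 CPM there and 9.33 to 15.9 CPM in the other 6 libraries, and Tlr2, a receptor for bacterial lipoproteins, 549 to 605 against 59.8 to 151 CPM.

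Other genes of the MAP kinase pathways were examined as lists, whose counts stand beside a background over all genes of 28.1% lower and 27.0% higher in experiment 1, 8.29% and 7.52% in experiment 2, and 3.41% and 3.72% in both together. Of the 3 other classical MKPs, Dusp8 fell in experiment 1 (log2 fold change -1.08, SE 0.18, adjusted p = 0.00136, edgeR) and Dusp7, a phosphatase of ERK, was not called in either experiment (-0.28 and 0.58). Of 11 atypical DUSPs tested, 2 fell and 2 rose in experiment 1, and 2 rose in experiment 2. Dusp18 rose in both, with 2.71 to 5.73 CPM over the WT and 7.47 to 8.59 CPM over the KO libraries (0.50, adjusted p = 0.0147, and 1.40, adjusted p = 0.0197, edgeR). Of 6 phosphatases from other families, 5 fell in experiment 1, among them Ppp2ca, the catalytic subunit of PP2A (-0.55, SE 0.06, adjusted p = 0.000106, edgeR), and Ppm1a rose in experiment 2 (0.48, adjusted p = 0.0434) after a fall in experiment 1 (-0.50, adjusted p = 0.000187).

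Above p38, 5 of 15 tested isoforms and upstream kinases fell in experiment 1 and 6 rose. Mapk12 (p38γ), at 0.137 and 0.115 CPM in WT 3 and 4 (5 and 4 counts) and 0.952 and 1.42 CPM in KO 7 and 8, rose in experiment 2 (log2 fold change 3.20, SE 0.45, adjusted p = 0.0163, edgeR). It had 0.885 and 0.792 CPM in WT 1 and 2 and 0.649 and 0.675 CPM in KO 5 and 6 (-0.35, adjusted p = 0.327, edgeR). Thus WT 3 and 4 were its low libraries. Map2k6, which phosphorylates p38, rose from 0.885 and 1.14 CPM in WT 1 and 2 to 6.74 and 5.97 CPM in KO 5 and 6 (2.64, SE 0.20, adjusted p = 2.36e-05, edgeR), with 1.29 CPM in each of WT 3 and 4 and 3.46 and 1.63 CPM in KO 7 and 8. In both experiments together the upstream kinases Map3k5 (ASK1) and Map3k4 rose (0.40 and 0.30, adjusted p = 0.0316 and 0.0360, edgeR) and Mapk11 (p38β), named after its values were seen, fell (-0.71, adjusted p = 0.0398, edgeR).
Below p38, 7 of 17 tested substrates and effectors fell in experiment 1 and 5 rose, while 1 fell and 5 rose in experiment 2. The one that fell in experiment 2 was Zfp36 (tristetraprolin), an mRNA-destabilising protein that MK2 phosphorylates, named after its values were seen. It fell in both experiments (log2 fold changes -0.57, adjusted p = 0.000152, and -0.92, adjusted p = 0.0213, edgeR). Its relative Zfp36l2 and the kinase Mknk2, which phosphorylates the cap-binding factor eIF4E, rose in both. Zfp36l2 had 0.95 (adjusted p = 9.74e-06) and 0.74 (adjusted p = 0.0182), and Mknk2 0.71 (adjusted p = 2.30e-05) and 0.83 (adjusted p = 0.0169, edgeR).

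In the ERK cascade, 11 of 18 tested genes fell and 4 rose in experiment 1, and the exchange factor Sos2 fell in experiment 1 (log2 fold change -0.60, adjusted p = 0.000122) and rose in experiment 2 (0.81, adjusted p = 0.0147, edgeR). The kinases Map3k8 (Tpl2, which activates MEK downstream of Toll-like receptors) and Map2k1 (MEK1) were the 2 that fell in both experiments together (log2 fold changes -0.47 and -0.36, adjusted p = 0.0251 and 0.0315, edgeR). Of 10 tested genes of the JNK cascade, 4 fell and 4 rose in experiment 1 and 3 rose in experiment 2, and Map3k1 rose in each (0.87, adjusted p = 2.92e-05, and 0.58, adjusted p = 0.0259, edgeR). Among 20 tested genes that ERK induces or that feed back on it, 10 fell and 4 rose in experiment 1, and 4 fell and 3 rose in experiment 2. Junb and Ier3 fell in both, Junb by 0.72 and 1.29 on the log2 scale (adjusted p = 2.72e-05 and 0.0112) and Ier3 by 0.82 and 1.17 (adjusted p = 7.02e-05 and 0.0161, edgeR).
Fos, an immediate early gene like Dusp1, had 89.2 and 85.5 CPM in WT 1 and 2 and 25.1 and 27.0 CPM in KO 5 and 6 (log2 fold change -1.76, SE 0.07, adjusted p = 1.33e-06, edgeR). In experiment 2 it had 84.6 and 80.6 CPM in WT and 73.1 and 56.4 CPM in KO (-0.35, SE 0.15, adjusted p = 0.173, edgeR). The medians of the ERK-induced list were -0.43 and -0.10 in experiments 1 and 2, against 0.01 over all genes.

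**Figure D5:**
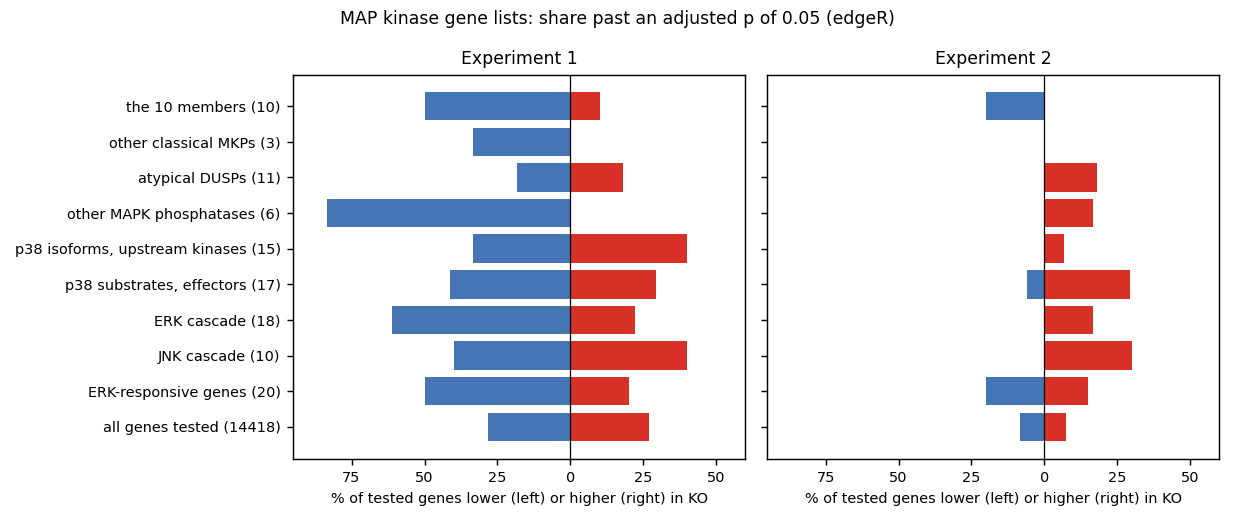
Share of the tested genes of each list that were lower (blue, left) or higher (red, right) in KO at an adjusted p under 0.05 (edgeR), in experiment 1 and experiment 2, with the number tested in brackets. In experiment 1 the bars are long in both directions for all genes (28.1% lower, 27.0% higher), and in experiment 2 they are short (8.29% and 7.52%).

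The fibroblast markers that were higher in KO of experiment 1 moved with the lower levels of Dusp1, Dusp2, Dusp4, Dusp5 and Dusp16 and the higher level of Dusp6 in the same 2 libraries. Their part in these results was not tested. In experiment 2, where 0 of the 7 fibroblast markers were called by edgeR (1 lower at an unadjusted p under 0.05, and 1 lower by DESeq2) and their sum was 2.18 to 12.1 CPM, edgeR called Dusp2 lower again of those 5 phosphatases, and DESeq2 called Dusp2, Dusp4, Dusp5 and Dusp16. Over all 14418 genes tested, edgeR called 8.29% lower in experiment 2 and DESeq2 called 1632 genes lower. KO lay below WT without overlap for Dusp2, Dusp4, Dusp5 and Dusp16, as it did for 32.5% of all genes, and the libraries overlapped for Dusp1 and Dusp6.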

How the data were processed

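RNA was measured in 4 WT and 4 KO libraries of a stranded mRNA kit, grouped by their titles and split into the 2 experiments whose count tables hold them. The authors deposited raw counts per gene, whole numbers, which were used here, and normalized counts, which are the same libraries scaled within each experiment and were not used. The submitters' processing notes name STAR 2.7.0f, featureCounts of Subread 1.6.4, DESeq2 1.22.1 and GRCm38, and the gene annotation and strand setting are not given in the sources used here. The files list genes by symbol.

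Both tables were joined by symbol, and genes passing filterByExpr by genotype over 8 libraries were kept. KO was compared with WT by edgeR 4.0.16 in R 4.3.3 (TMM, robust quasi-likelihood F test, Benjamini-Hochberg adjustment over 14418 genes, threshold 0.05) in each experiment alone, in both with experiment as a term, and for the product of experiment and genotype. Standard errors were derived from the F statistic (absolute log2 fold change over root F). CPM values were TMM-scaled over all 8 libraries, and log2 CPM used a prior count of 2. Replicate pairs differed by more than counting noise (chi-square per gene 12.3 to 80.2), and none was treated as a duplicate. Alternatives were DESeq2 1.42.0, limma-voom (limma 3.58.1), 2 other filters, upper-quartile scaling, an adjusted p under 0.01, a spread shared by 4 groups, no experiment term and each library left out.

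The members and lists were chosen with earlier results of these data known. Named were the 10 members, Mkl1, genes of each MAP kinase list (the 2 with the smallest p in both experiments together and the 1 in each experiment), of which some are given by count only or are not reported here, and the 3 genes most like each of the 2 members with the widest range of group means. Gene positions and exon lengths came from GENCODE M21 and promoters from RefSeq, both on GRCm38. Figures were drawn with matplotlib 3.10.9.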

Additional observations from a re-analysis of the deposited data

Results flagged for a closer look

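Dusp5 had 8.97 CPM in WT 4, far from the other 3 WT libraries (3.58 to 3.91 CPM), with a gap of 0.939 of the whole range. This was 1 of 20 groups of 4 libraries examined for a distant value, of which chance gives about 1.

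In the edgeR interaction test, 4 members had a genotype difference that was unlike in experiments 1 and 2. On the log2 scale, experiment 2 minus experiment 1, the difference was 1.98 for Dusp1 (adjusted p = 0.00254), -1.88 for Dusp2 (adjusted p = 0.0151), -0.56 for Mapk14 (adjusted p = 0.00879) and -1.65 for Mapkapk2 (adjusted p = 0.000822). Over all genes tested, 41.6% differed in this way. For Dusp2 and Mapkapk2 the libraries that set the experiments apart were WT 3 and 4, with means 4.77-fold and 2.60-fold above WT 1 and 2, while for Dusp1 both genotypes differed, with the KO mean 2.49-fold higher in experiment 2 and the WT mean 1.58-fold higher in experiment 1.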

How the results depend on the processing

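No paired analysis was possible because the groups share no replicate numbers. In experiment 1 the 6 called members became 3 with a spread shared by 4 groups (Dusp1, Dusp4 and Dusp5, with 5974 of 14418 genes called), 8 with no filter beyond 1 count (Mapkapk2 and Mapk3 added, adjusted p = 0.00254 and 0.00613) and 5 to 7 with 1 library left out. With no filter beyond 1 count, 9029 of 28193 genes were called in experiment 1. In experiment 2, where the main fit called 2279 of 14418 genes, DESeq2 called 3135 and the shared spread 4899. There the 2 called members became 6 with DESeq2 and 6 with the shared spread, in both cases Dusp2, Dusp4, Dusp5, Dusp16, Mapk14 and Mapkapk2. They became 1 at an adjusted p under 0.01 and 0 to 4 with 1 library left out, with 4 without WT 3, 1 without KO 7 and 0 without KO 8 (2 at an unadjusted p under 0.05 in edgeR). In both experiments together the 2 called members became 5 with DESeq2 (2492 of 14418 genes called). They became 0 at an adjusted p under 0.01 and 0 without the experiment term (6 at an unadjusted p under 0.05 in each edgeR fit). With 1 library left out they became 0 to 2, where the fits with 0 had 5 or 6 at an unadjusted p under 0.05. By limma-voom the 2 called were Dusp2 and Dusp4. The interaction test called 3 to 6 members with 1 library left out, of which Dusp1 and Mapkapk2 were called in every such fit, Dusp2 was lost without WT 1 or KO 6, and Mapk14 without KO 5. A lone library left in a group was assumed to vary like the others.

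Directions turned for values that were not called. With 1 library left out, Dusp1 in experiment 2 ranged from -0.31 without KO 7 (-0.04 without WT 3) to 0.42, Mapk3 in both together from -0.03 without WT 3 (-0.02 without KO 7) to 0.11, the interaction of Dusp5 from -0.17 without WT 3 (-0.01 without KO 7) to 1.09 and that of Dusp6 from -0.24 without WT 4 or KO 7 to 0.65. Of 480 values of single members under an alternative, 409 kept their direction and side of the threshold, 32 lost a call, 31 gained one and 8 turned. The cause was not tested.

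Over all genes, 2279 calls in experiment 2 became 4899 with the shared spread, 234 at an adjusted p under 0.01 and 232 to 1388 with 1 library left out. In both together 1027 became 2492 with DESeq2, 208 at an adjusted p under 0.01, 4 without the experiment term and 243 to 1100 with 1 library left out. The 5996 interactions became 3247 at an adjusted p under 0.01 and 3935 to 6508 with 1 library left out. With upper-quartile scaling 59.8% of the calls in experiment 1 were higher against 49.0% with TMM, and 67.3% against 52.2% in both together. Only 2 libraries a group were compared in an experiment, and a p that misses the threshold does not show that levels were alike.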
